A study of Mus musculus with 2 samples.

Results

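The machinery that copies DNA in S phase was followed here through 33 genes, taken by their symbols from a list and found once each among the 31053 genes counted in mouse peritoneal cells. The set runs from the proteins that license an origin to the enzymes that make nucleotides, the factors that rebuild chromatin behind the fork and the cyclins that open S phase. The rule goes by what the genes do and uses no measured value. The cells came from a zymosan peritonitis, an inflammation set off in the peritoneal cavity by yeast cell wall particles, and all peritoneal cells were collected on day 3. Both groups were mice of 10 to 14 weeks given 1 mg of zymosan each. The Cd36-/- group carried LysM-Cre and floxed CD36, so that the gene for this scavenger receptor for lipids is cut where LysM-Cre is active, in macrophages, but also in neutrophils and in part of the other myeloid cells. The fl/fl group carried floxed CD36, and its label names no Cre. Each group was 1 library made from a pool of 4 replicates, counted with a 3′ single-cell assay, so differences between the 2 libraries have no replicate check, carry no p-value, and cannot be told apart from differences between pools.

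Before S phase the MCM helicase is loaded on origins as an inactive ring of different subunits, with Cdc6 and Cdt1 as loaders. Kinases of S phase then bring in Cdc45 and the GINS complex, the ring opens the double helix, and a primase and polymerases held by the PCNA clamp copy both strands. Many of these genes are transcribed together by E2F factors as a cell leaves G1, while the genes of mitosis follow later in the cycle. Resident macrophages of the mouse peritoneum are known to divide in place during the resolution of inflammation.

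After filtering and removal of doublets 15023 cells of the Cd36-/- library and 14005 cells of the fl/fl library were used, with medians of 6570 and 6897 unique molecules (UMIs) a cell. The 33 genes took 0.0704% of all UMIs in Cd36-/- and 0.0658% in fl/fl. Cd36 itself was at 171 CPM in Cd36-/- macrophages and at 240 CPM in fl/fl macrophages (UMIs of a gene per 1000000 UMIs of the class), so its message was lower but not absent. The exon that is floxed is not given in the sources used here, so a count at the 3′ end may not report the deletion. A cluster of few UMIs, 649 Cd36-/- and 666 fl/fl cells, stayed unnamed and held haemoglobin message (Hba-a1 at 0.638 CPM in Cd36-/- and 826 CPM in fl/fl). Cells were grouped into 15 clusters with replication, mitosis and histone genes left out of the clustering, and each class name below means cells like that type by its markers. Macrophages fell into large peritoneal macrophages (LPM), with Gata6 at 123 and 124 CPM in the Cd36-/- and the fl/fl library, macrophages with little Gata6, at 34.4 and 34.1 CPM, and macrophages rich in MHC class II genes. One of the Gata6-low clusters was still led by cell cycle genes such as Pclaf and Birc5 although these had no part in the clustering. The libraries shared 383 cell barcodes, and without those cells the members' sum in macrophages had a log2 ratio, Cd36-/- over fl/fl, of 0.01, against 0.00 with them. A 3′ assay counts 1 end per molecule, so CPM does not grow with gene length.

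The promoters of 28 of the 33 genes were found in the RefSeq table (GRCm38.p6), and the 250 bases before each start were searched on both strands for the E2F words TTTCCCGC, TTTCGCGC, TTTGCCGC and TTTGGCGC. At least 1 of these words stood in 9 of the 28 (32.1%), against 583 of 27025 genes in the table (2.16%). Among other replication genes 9 of 43 held one (20.9%), and among mitosis genes 1 of 26 (3.85%). The CCAAT box stood in 17 of the 28 (60.7%) and in 37.5% of all promoters. It was as common among other replication genes, 25 of 43 (58.1%), and more common among mitosis genes, 21 of 26 (80.8%). The word TTTGAA, the core of the element of late cell cycle genes, stood in 3 of the 28 (10.7%), in 8 of 26 mitosis promoters (30.8%) and in 18.3% of all promoters. These matches are a description of the letters and not of binding.

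Mcm5 and Mcm6 are shown because they are the pair of members with more than 1 E2F word, and because they belong to the helicase subunits whose levels are compared first below. Uhrf1, Hells and Cdca7 are shown because they stood lowest in Cd36-/- B-1 cells. Each has 1 word, while Mcm3, Rfc4 and Chaf1a, also lower in those cells, have 0. Slbp, whose message was the least tied to the other members beside Rfc2 and Gins1, has no E2F word and is shown as a contrast. Capitals mark the E2F words on either strand, and the words in Mcm5 and the first pair in Mcm6 lie on opposite strands and overlap. All 6 read 5′ to 3′ toward the start of transcription.
Mcm5 promoter, chr8:75109259-75109508, plus strand: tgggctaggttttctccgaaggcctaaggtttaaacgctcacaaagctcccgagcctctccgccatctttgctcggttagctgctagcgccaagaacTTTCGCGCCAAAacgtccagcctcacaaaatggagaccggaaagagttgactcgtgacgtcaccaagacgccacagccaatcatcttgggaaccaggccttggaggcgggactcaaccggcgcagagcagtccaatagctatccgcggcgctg
Mcm6 promoter, chr1:128359706-128359955, minus strand: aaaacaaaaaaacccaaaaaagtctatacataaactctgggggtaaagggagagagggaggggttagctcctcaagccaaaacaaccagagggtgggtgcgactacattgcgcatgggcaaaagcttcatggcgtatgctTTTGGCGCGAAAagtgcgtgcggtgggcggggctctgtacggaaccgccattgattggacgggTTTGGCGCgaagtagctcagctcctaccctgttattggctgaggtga
Uhrf1 promoter, chr17:56304063-56304312, plus strand: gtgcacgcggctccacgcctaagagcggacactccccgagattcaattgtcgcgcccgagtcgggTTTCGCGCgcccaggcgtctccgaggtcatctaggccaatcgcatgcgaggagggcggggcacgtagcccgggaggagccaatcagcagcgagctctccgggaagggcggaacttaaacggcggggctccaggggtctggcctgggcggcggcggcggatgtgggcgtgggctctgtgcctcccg
Hells promoter, chr19:38930740-38930989, plus strand: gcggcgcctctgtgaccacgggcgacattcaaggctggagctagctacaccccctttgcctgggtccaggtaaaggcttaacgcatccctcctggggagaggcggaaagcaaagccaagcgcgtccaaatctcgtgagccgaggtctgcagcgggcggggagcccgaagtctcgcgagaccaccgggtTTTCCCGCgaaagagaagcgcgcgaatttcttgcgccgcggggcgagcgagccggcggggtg
Cdca7 promoter, chr2:72475969-72476218, plus strand: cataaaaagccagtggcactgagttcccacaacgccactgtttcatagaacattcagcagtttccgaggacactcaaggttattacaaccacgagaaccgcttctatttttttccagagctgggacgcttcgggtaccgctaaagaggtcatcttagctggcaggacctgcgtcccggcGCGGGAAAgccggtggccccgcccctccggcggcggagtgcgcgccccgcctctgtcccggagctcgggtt
Slbp promoter, chr5:33652575-33652824, minus strand: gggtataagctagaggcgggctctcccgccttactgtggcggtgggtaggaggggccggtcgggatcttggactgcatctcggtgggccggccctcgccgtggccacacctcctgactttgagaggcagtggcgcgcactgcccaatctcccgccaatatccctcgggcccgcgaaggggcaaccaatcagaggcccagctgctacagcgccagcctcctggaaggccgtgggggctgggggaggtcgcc

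The level of the gene set differed several-fold between cell types and by less than counting error between the libraries in macrophages taken as a whole. Summed over the 33 genes, Gata6-low macrophages held 1000.1 CPM in Cd36-/- and 994 CPM in fl/fl, the highest of the macrophage classes. LPM held 541 CPM in Cd36-/- and 561 CPM in fl/fl, and MHC class II macrophages 429 and 365 CPM. The LPM were made of a pair of clusters that differed between the libraries in opposite directions. One, led by Alox15, held 414 CPM in Cd36-/- (399 to 430) and 299 CPM in fl/fl (284 to 314), and the other 585 CPM in Cd36-/- (574 to 595) and 631 CPM in fl/fl (620 to 642). Gata6-low macrophages also joined a pair of clusters. One, led by Cbr2 and Folr2, held 753 CPM in Cd36-/- (740 to 765) and 775 CPM in fl/fl (762 to 787). The other, led by Pclaf among others, held 1201 (1187 to 1215) and 1216 CPM (1200 to 1232). Both were slightly lower in Cd36-/-, with overlapping intervals, while the class sum was not. The richer cluster had 2208 of 4655 Cd36-/- and 1533 of 3657 fl/fl cells. Type 1 conventional dendritic cells (cDC1), 39 Cd36-/- and 33 fl/fl cells, stood at 976 and 866 CPM, with an interval that overlaps that of Gata6-low macrophages in the Cd36-/- library (879 to 1080 CPM) and lies below it in the fl/fl library (783 to 957 CPM). Type 2 conventional dendritic cells (cDC2) held the least of the dendritic classes, 359 CPM in Cd36-/- and 330 CPM in fl/fl. Among lymphocytes, natural killer (NK) cells held 795 CPM in Cd36-/- and 535 CPM in fl/fl, T cells 716 and 668 CPM, B-2 cells 557 and 486 CPM, and B-1 cells 441 and 499 CPM. Neutrophils, which do not divide, gave 402 CPM from 37 UMIs in Cd36-/- and 198 CPM from 24 UMIs in fl/fl, and mesothelial and fibroblast cells 468 and 281 CPM from 68 and 66 UMIs. Rfc2 had the most UMIs of the members over both libraries together in each of these small classes, with 11 Cd36-/- and 4 fl/fl UMIs in neutrophils and 11 and 7 UMIs in the mesothelial and fibroblast cells. The interval of the ratio for counting error included 0 in macrophages as a whole (765 CPM, 759 to 771, in Cd36-/- and 763 CPM, 757 to 770, in fl/fl), in Gata6-low macrophages, T cells and cDC1. In summed counts, fewer cells in S phase and less message in each such cell cannot be told apart.

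**Figure D1:**
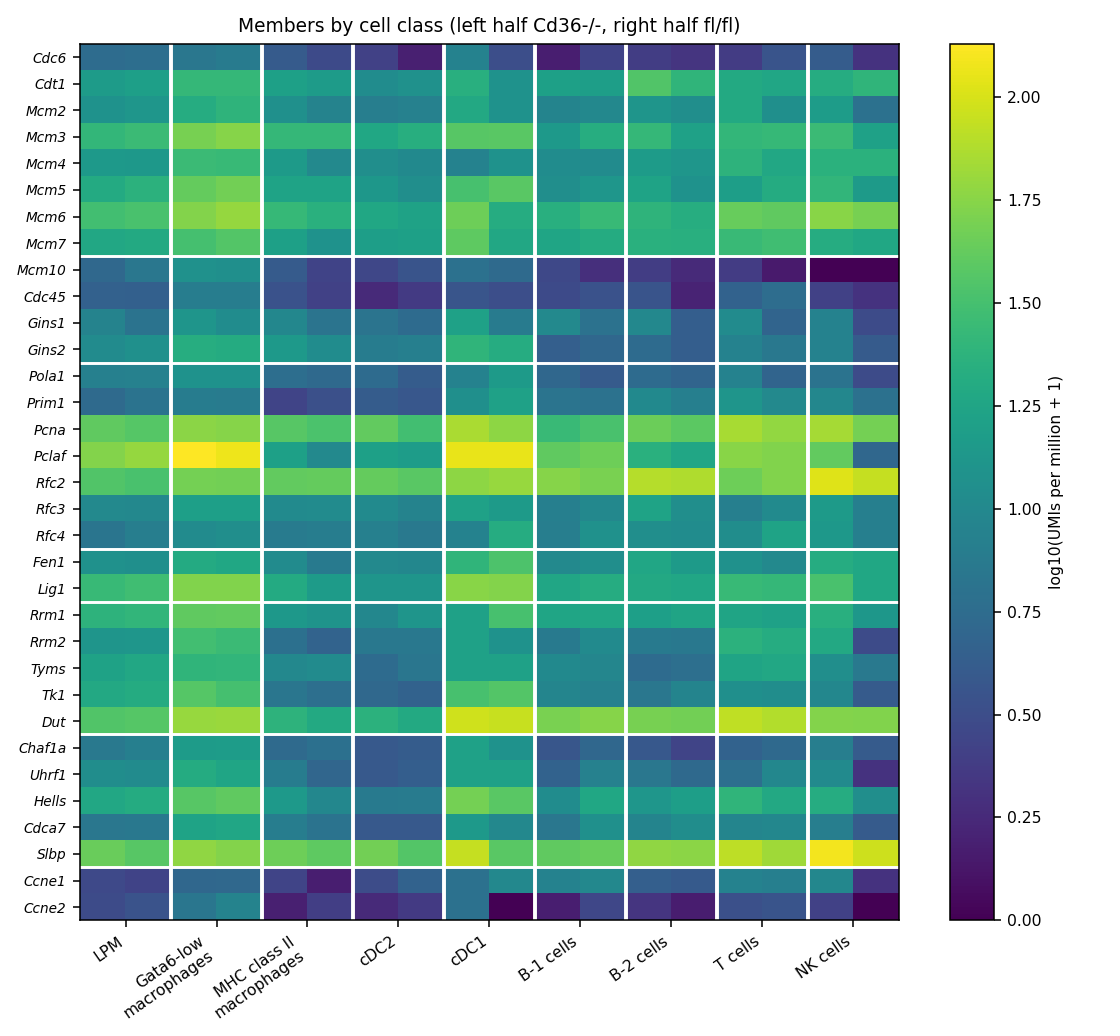
Level of each of the 33 genes in 9 cell classes, as log10 of CPM plus 1 (colour); for each class the left column is the Cd36-/- library and the right column the fl/fl library, and white lines part the roles. Pclaf is the brightest row in Gata6-low macrophages, at 134 CPM in Cd36-/- and 117 CPM in fl/fl, and Slbp and Rfc2 are bright in every class.

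Not 1 of the 33 members differed by 1.5-fold or more between Cd36-/- and fl/fl macrophages, where 3.49% of the 11979 genes compared did. The median log2 ratio of the members was -0.02, with 13 above and 20 below 0, beside a median of -0.03 for all genes, of which 42.6% lay above 0. The sum of all members had a log2 ratio of 0.00 (-0.01 to 0.02, here and below the 95% interval for counting error). The same count was 0 of 33 in LPM (background 3.99%) and 0 of 33 in Gata6-low macrophages (background 3.77%).

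Origin licensing stood lower as a whole in Cd36-/- macrophages, at 194 CPM against 210 CPM in fl/fl, a log2 ratio of -0.11 (-0.14 to -0.08). The only other role that was lower was that of the G1/S cyclins, at 6.86 CPM in Cd36-/- and 8.16 CPM in fl/fl (-0.25, -0.42 to -0.08). The helicase subunits Mcm2, Mcm3, Mcm5, Mcm6 and Mcm7 were each lower: Mcm6, the most abundant, was at 41.3 CPM in Cd36-/- and 45.7 CPM in fl/fl macrophages, a log2 ratio of -0.14 (-0.21 to -0.07). Mcm3 was at 36.9 CPM in Cd36-/- and 41.3 CPM in fl/fl (-0.16), and Mcm5 at 30.3 and 34.3 CPM (-0.18, -0.26 to -0.10). These 3 subunits thus lay about as far below fl/fl as one another, well inside the 1.5-fold limit. Mcm2 was at 15.6 CPM in Cd36-/- and 17.4 CPM in fl/fl (-0.16), and Mcm7 at 24.3 and 26.3 CPM (-0.11). Mcm4, the sixth subunit of the ring, did not share the difference, at 20.7 CPM in Cd36-/- and 19.2 CPM in fl/fl (0.11, 0.00 to 0.21). Of the loaders, Cdt1 was at 19.999 and 20.3 CPM (-0.02) and Cdc6 at 5.16 and 5.47 CPM (-0.09, -0.29 to 0.12), so neither was separated from 0. In Gata6-low macrophages all 5 lower subunits were at log2 ratios of -0.23 to -0.17, and in LPM at -0.23 to -0.07, where the intervals of Mcm2, Mcm6 and Mcm7 included 0. In MHC class II macrophages licensing was higher instead, at 125 CPM in Cd36-/- and 107 CPM in fl/fl (0.22, 0.11 to 0.34). Mcm2 had a ratio of 0.42 there, and of -0.06 to 0.42 in 5 other ways of forming that class. Across the 7 other ways of forming macrophages the ratio of Mcm5 ran from -0.21 to -0.16 and that of Mcm4 from 0.07 to 0.12.

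Helicase activation had the opposite sign, at 38.7 CPM in Cd36-/- and 36.0 CPM in fl/fl macrophages (0.11, 0.03 to 0.18). This rested on Gins1, a subunit of the GINS complex, at 10.2 CPM in Cd36-/- and 7.80 CPM in fl/fl (0.38, 0.23 to 0.54), the highest ratio of all 33 members. Its partner Gins2 was at 15.7 CPM in Cd36-/- and 15.3 CPM in fl/fl (0.04). Cdc45, the third component of the active helicase, was at 5.19 and 5.09 CPM (0.03), and Mcm10, which helps to start unwinding, at 7.63 and 7.80 CPM (-0.03). Gins1 was thus alone among the 4 genes of this role in standing away from 0.

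Pclaf, which encodes a small protein bound to the PCNA clamp, was the most abundant member in macrophages, at 89.9 CPM in Cd36-/- and 83.5 CPM in fl/fl (0.11, 0.06 to 0.16). Pcna, the clamp, was at 47.9 and 45.5 CPM (0.08, 0.01 to 0.14). The clamp loader subunit Rfc2 was at 42.2 CPM in Cd36-/- and 41.1 CPM in fl/fl (0.04). Its partners Rfc3 and Rfc4 were several-fold scarcer in both libraries, Rfc3 at 12.1 CPM in each (-0.00) and Rfc4 at 7.94 CPM in Cd36-/- and 8.73 CPM in fl/fl (-0.14, -0.30 to 0.03). Of the primase and polymerase alpha genes, Prim1 was at 5.31 and 5.68 CPM (-0.10) and Pola1 at 8.99 and 9.04 CPM (-0.01). Fen1, the flap endonuclease, was at 15.1 CPM in Cd36-/- and 13.8 CPM in fl/fl (0.13, 0.00 to 0.25), and Lig1, the ligase that seals the lagging strand, at 39.1 and 39.2 CPM (-0.00).

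Nucleotide supply summed to 142 CPM in Cd36-/- and 141 CPM in fl/fl macrophages (0.01). Dut, which clears dUTP, was at 47.4 and 48.0 CPM (-0.02). The large subunit of ribonucleotide reductase, Rrm1, was at 30.2 CPM in Cd36-/- and 31.0 CPM in fl/fl (-0.04), and the small subunit, Rrm2, at 20.05 and 19.1 CPM (0.07, -0.03 to 0.18). The enzymes that make thymidylate parted slightly, with thymidine kinase Tk1 at 25.7 CPM in Cd36-/- and 23.4 CPM in fl/fl (0.14, 0.04 to 0.23) and thymidylate synthase Tyms at 18.9 and 20.03 CPM (-0.08, -0.19 to 0.02).

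Among chromatin and histone genes, Slbp, whose protein binds the ends of histone messages, was at 51.3 CPM in Cd36-/- and 45.4 CPM in fl/fl macrophages (0.18, 0.11 to 0.24). Uhrf1, which guides maintenance of DNA methylation, was at 14.5 and 12.7 CPM (0.19, 0.06 to 0.32). Both were higher in the Cd36-/- library, whereas the other 3 genes of the role were level or slightly lower. Hells, a chromatin remodeller, was at 27.0 CPM in Cd36-/- and 28.5 CPM in fl/fl (-0.08), its partner Cdca7 at 11.5 and 11.9 CPM (-0.05), and the histone chaperone subunit Chaf1a at 9.97 and 10.6 CPM (-0.09). The cyclins of the G1 to S step were among the scarcest members. Ccne2 was at 3.80 CPM in Cd36-/- and 5.27 CPM in fl/fl (-0.47, -0.70 to -0.25), the lowest ratio of all 33 members, while Ccne1 was at 3.06 and 2.89 CPM (0.08, -0.19 to 0.36). In a finer clustering, at resolution 2, haemoglobin genes led a Gata6-low cluster of 97 Cd36-/- and 158 fl/fl cells, together with Cdca7, Ccne2 and Hells. The part of that cluster in these values was not tested.

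**Figure D2:**
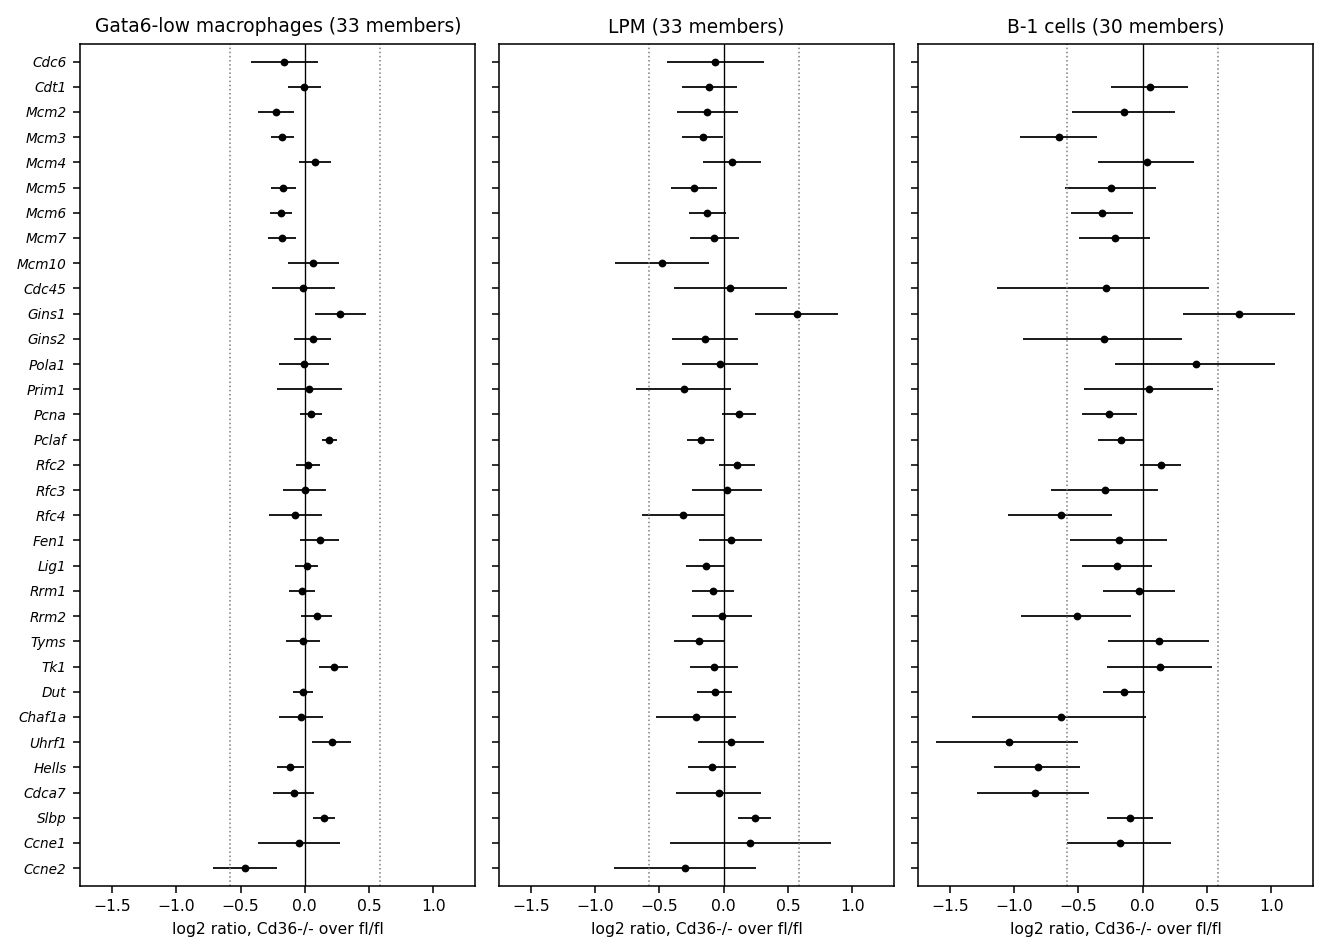
Log2 ratio, Cd36-/- over fl/fl, of each member with at least 50 UMIs in Gata6-low macrophages (33), LPM (33) and B-1 cells (30); points are ratios, bars 95% intervals for counting error, and dotted lines mark 1.5-fold. In both macrophage classes every point lies inside the dotted lines, with Gins1 at 0.28 and 0.57, and in B-1 cells Uhrf1 lies farthest out at -1.04.

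Within the macrophages the gene set was higher in the Gata6-low class than in LPM in both libraries, most of all in its cluster led by Pclaf. The Gata6-low cluster led by Cbr2 and Folr2 held 753 CPM in Cd36-/- and 775 CPM in fl/fl. The higher of the LPM clusters held 585 and 631 CPM. The values below join the clusters of each class. All 33 members were higher in Gata6-low macrophages than in LPM in each library, and 24 were at least 1.5-fold higher in both, where 7.08% of 11819 genes were. The largest difference was that of Ccne2, at 5.82 CPM in Gata6-low macrophages against 2.04 CPM in LPM of the Cd36-/- library and 8.01 against 2.50 CPM in the fl/fl library. Cdca7 followed, at 16.3 against 5.93 CPM in Cd36-/- and 17.3 against 6.09 CPM in fl/fl. Ccne2 and Cdca7 were among the leading genes of the Gata6-low cluster with haemoglobin message given above, and its part here was not tested. The smallest differences were those of Cdc6 (log2 ratios 0.37 in Cd36-/- and 0.46 in fl/fl), Slbp (0.43 and 0.53), Rfc2 (0.47 and 0.54) and Prim1 (0.63 and 0.29). The classes were also formed again from marker counts of single cells alone. Then 33 of 33 members were again higher in both libraries and 25 by 1.5-fold or more, against 6.54% of genes. Of the cells gated as Gata6-low, 3692 of 4367 in Cd36-/- and 2975 of 3437 in fl/fl were also Gata6-low by cluster. These gates do not set the cluster led by Pclaf apart, so its part in the difference was not tested. The median member had a log2 ratio of 0.80 in Cd36-/- and 0.88 in fl/fl under these gates, and of 0.87 and 0.84 by clusters.

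Pclaf stood on opposite sides of fl/fl in these 2 classes. It was at 134 CPM in Cd36-/- and 117 CPM in fl/fl Gata6-low macrophages (0.19, 0.13 to 0.25), and at 53.5 CPM in Cd36-/- and 60.6 CPM in fl/fl LPM (-0.18, -0.29 to -0.07). In the 7 other ways of forming the classes the ratio ran from 0.12 to 0.20 in Gata6-low macrophages and from -0.20 to -0.07 in LPM. Tk1 was also higher in Cd36-/- Gata6-low macrophages, at 35.7 CPM against 30.6 CPM in fl/fl (0.22), and Ccne2 lower (-0.46). Dut, at 62.5 CPM in Cd36-/- and 63.2 CPM in fl/fl (-0.01), did not differ there beyond counting error, and Mcm6, at 53.2 and 60.4 CPM (-0.18), and Mcm3, at 48.1 and 54.4 CPM (-0.18), were lower. In LPM, Slbp was higher at 43.2 CPM in Cd36-/- and 36.5 CPM in fl/fl (0.24), Pcna was at 39.5 and 36.3 CPM (0.12, -0.01 to 0.25), and Mcm10 was lower at 4.26 and 5.93 CPM (-0.48, -0.84 to -0.11).

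In LPM the genes of mitosis did not stay level with those of replication. All 30 mitosis genes were lower in Cd36-/- LPM, 17 of them by 1.5-fold or more, with a median log2 ratio of -0.61 (2.74% of all genes were that much lower), while the median of the 33 replication members was -0.08. Of all genes compared in LPM, 44.9% lay above 0. Cks2, a subunit of cyclin-dependent kinases, was at 57.4 CPM in Cd36-/- and 73.3 CPM in fl/fl LPM (-0.35), and Ube2c, which helps to destroy mitotic cyclins, at 51.5 and 75.1 CPM (-0.54). Birc5, a component of the chromosome passenger complex, was at 50.1 and 70.2 CPM (-0.48) and Top2a, a topoisomerase, at 45.3 and 65.5 CPM (-0.53). All 30 were also lower in each of the 7 other ways of forming LPM, with medians from -0.61 to -0.51. In the LPM cluster led by Alox15 the mitosis genes summed to 165 CPM in Cd36-/- and 187 CPM in fl/fl, and in the other LPM cluster to 613 and 919 CPM. The members' sums, given above, were higher in Cd36-/- in the first cluster and lower in the second, so the LPM values join both. In Gata6-low macrophages the same list had 28 of 30 genes above 0, where 44.2% of all genes were, and a median of 0.11, with no gene 1.5-fold apart. In the 7 other ways of forming that class, 21 to 29 of the 30 were above 0, with medians from 0.05 to 0.13. The list summed to 455 CPM in Cd36-/- and 415 CPM in fl/fl in the Gata6-low cluster led by Cbr2 and Folr2. In the Gata6-low cluster led by Pclaf it summed to 1347 and 1304 CPM.

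The same pattern showed in single cells once each cell was thinned to 2000 UMIs, a depth that 3309 Cd36-/- and 2525 fl/fl LPM reached. Cells with 3 or more of the 33 members detected made up 8.34% of Cd36-/- LPM and 8.08% of fl/fl LPM, a difference of 0.26 percentage points (-1.20 to 1.70). Cells with Mki67 or Top2a made up 5.14% and 7.01%, a difference of -1.87 points (-3.16 to -0.61). Cells with 3 or more mitosis genes but under 3 members were 2.06% of Cd36-/- LPM and 3.72% of fl/fl LPM (-1.67 points, -2.60 to -0.78), whereas cells with 3 or more members and under 3 mitosis genes were 5.14% and 4.28% (0.86 points, -0.27 to 1.97), an interval that includes 0. Among LPM with 3 or more members, 97 of 276 Cd36-/- cells and 91 of 204 fl/fl cells held Mki67 or Top2a (35.1% and 44.6%). In Gata6-low macrophages the cells with mitosis genes but under 3 members were 4.30% of Cd36-/- and 4.32% of fl/fl cells. These differences have no replicate check, and LPM were less deeply counted in Cd36-/- (median 7549.5 UMIs) than in fl/fl (8568 UMIs) before thinning.

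**Figure D3:**
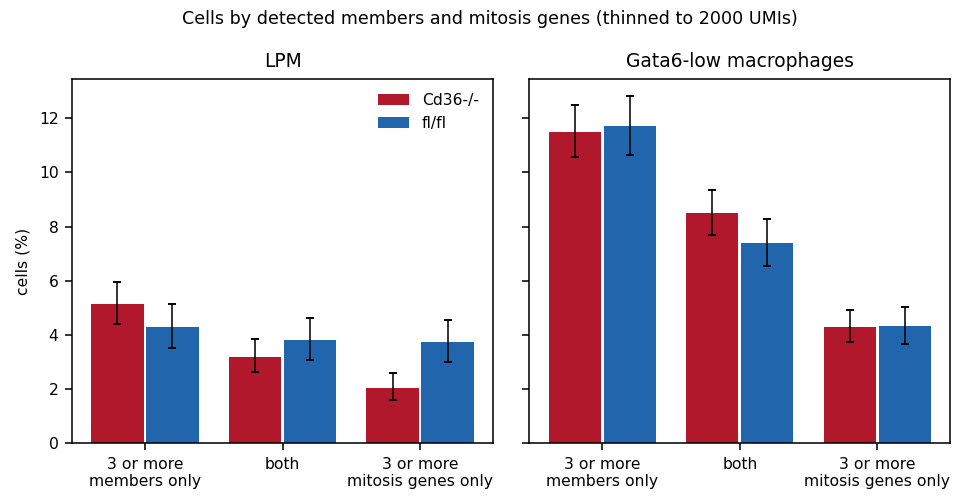
Share of LPM (left) and Gata6-low macrophages (right) with 3 or more members only, with 3 or more members and 3 or more mitosis genes, or with 3 or more mitosis genes only, each cell thinned to 2000 UMIs; bars are Cd36-/- (red) and fl/fl (blue), with 95% Clopper-Pearson intervals for counting error. In LPM the cells with mitosis genes only are 2.06% in Cd36-/- and 3.72% in fl/fl, and the intervals do not overlap.

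Cells with 3 or more members made up 20.01% of Gata6-low macrophages in Cd36-/- (18.8 to 21.2) and 19.1% in fl/fl (17.8 to 20.4). The share was 13.5% of all macrophages in Cd36-/- and 13.02% in fl/fl, and 4.83% and 4.24% of MHC class II macrophages. Among the other classes it was 8 of 39 cDC1 in Cd36-/- and 6 of 33 in fl/fl, 12.1% and 7.17% of NK cells, 7.51% and 7.26% of T cells, 6.10% and 4.14% of B-2 cells, 4.19% and 3.29% of cDC2, and 3.88% and 4.66% of B-1 cells. For every class named here the interval of the difference between the libraries included 0. At 500 UMIs a cell, at least 1 member was detected in 14.2% of Cd36-/- and 6.11% of fl/fl neutrophils, whose medians were only 720 and 906 UMIs, and in 21.5% and 20.8% of macrophages. The shares in MHC class II macrophages (14.9% and 14.2%), B-1 cells (15.2% and 14.96%) and LPM (15.7% and 16.2%) lay close to the neutrophil share in Cd36-/- and above it in fl/fl, so the background given by neutrophils was itself uncertain. In the few mesothelial and fibroblast cells, 51 in Cd36-/- and 43 in fl/fl, the shares were 29.4% (17.5 to 43.8) and 32.6% (19.1 to 48.5). Both intervals include the share of macrophages as a whole. This small cluster had medians of 665 and 756 UMIs, Ins2 and Ins1 among its leading genes, and Lyz2 at 8938 and 10217 CPM. Thinning mattered, since without it the share among macrophages was 40.1% in Cd36-/- and 42.4% in fl/fl, with fl/fl the more deeply counted.

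**Figure D4:**
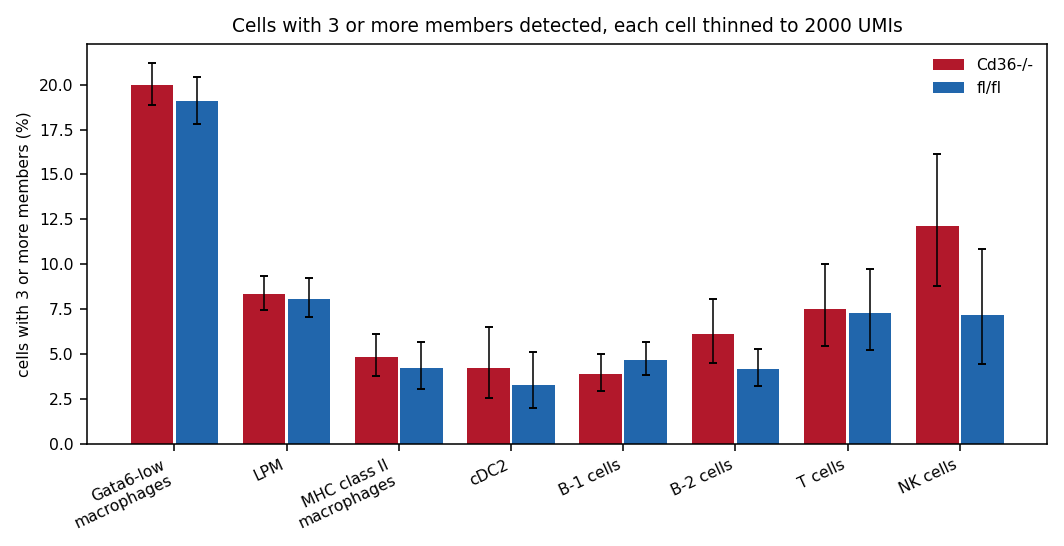
Share of cells with 3 or more of the 33 members detected after thinning to 2000 UMIs, for 8 cell classes; bars are Cd36-/- (red, left) and fl/fl (blue, right), with 95% Clopper-Pearson intervals for counting error. Gata6-low macrophages lead with 20.01% in Cd36-/- and 19.1% in fl/fl, and NK cells show the widest gap between the libraries, 12.1% and 7.17%.

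The macrophages with 3 or more members held 62.9% of the macrophage UMIs of the gene set in Cd36-/- and 63.9% in fl/fl, at 2760 and 2722 CPM, where the remaining cells were at 344 and 336 CPM. They were also larger in content, with medians of 11390 UMIs in Cd36-/- and 14279 UMIs in fl/fl, against 8041.5 and 9154.5 UMIs in the remaining cells. Each member was then set against the other 32. All 33 were found more often in macrophages with 3 or more of the others than in the rest, in both libraries. No such ratio was taken for genes outside the set, so this count and the ratios below have no background beside them. The macrophages with 3 or more members were also mostly Gata6-low, 894 of 1235 in Cd36-/- and 667 of 913 in fl/fl. The ratio of the shares was above 10 in both libraries for Ccne2 (36.6 in Cd36-/- and 18.4 in fl/fl), Rrm2 (28.8 and 17.3), Cdc45 (18.9 and 31.3), Uhrf1 (15.1 and 18.7), Tk1 (13.8 and 22.7) and Mcm10 (13.4 and 30.4), among others. The order of the members differed between the libraries. Pclaf was found in 37.98% of the rich and 3.54% of the remaining cells in Cd36-/-, and in 34.98% and 3.02% in fl/fl. The ratio was lowest for Rfc2 (2.34 in Cd36-/- and 2.40 in fl/fl), Gins1 (2.48 and 2.73) and Slbp (2.69 and 2.88), whose messages were spread over cells with few other members.

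**Figure D5:**
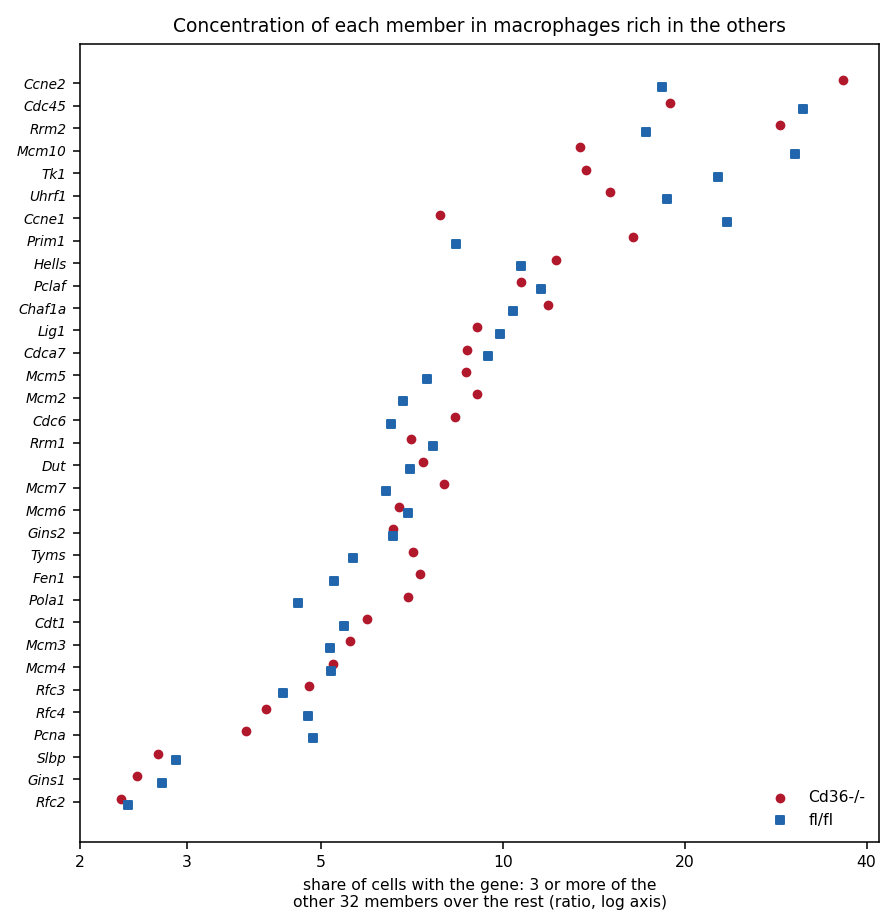
For each member, the share of macrophages in which it was detected among cells with 3 or more of the other 32 members, divided by the share among the remaining cells (log axis), for Cd36-/- (circles) and fl/fl (squares), cells thinned to 2000 UMIs. Ratios run from 2.34 for Rfc2 to 36.6 for Ccne2 in Cd36-/-, and the highest rest on few remaining cells, 10 in Cd36-/- and 15 in fl/fl for Ccne2.

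MHC class II macrophages, led by Ccr2 and Cx3cr1, held more of the gene set in the Cd36-/- library (log2 ratio of the sum 0.23, 0.17 to 0.30). Of 29 members compared, 7 were at least 1.5-fold higher, where 2.42% of genes were, and none was as much lower (2.34% of genes). Pclaf was at 15.3 CPM in Cd36-/- and 9.11 CPM in fl/fl (0.75, 0.37 to 1.14), Hells at 13.2 and 8.69 CPM (0.60), and Mcm4 at 13.5 and 9.01 CPM (0.59). Cdc6, Mcm10, Gins1 and Uhrf1 made up the 7. The members with the most UMIs there were Slbp, at 44.9 CPM in Cd36-/- and 39.3 CPM in fl/fl (0.19), Rfc2, at 40.2 and 40.95 CPM (-0.03), and Pcna, at 36.5 and 32.5 CPM (0.17), none of them separated from 0. The Pclaf counts came from 65 Cd36-/- and 27 fl/fl cells of the class. The count of 7 depended on where the class was drawn: 1 member of 24 was 1.5-fold higher with cell cycle genes kept in the clustering, and the log2 ratio of the sum was then 0.06. In cDC2 0 of 20 members were 1.5-fold apart (background 5.63%), with Pcna at 40.5 CPM in Cd36-/- and 29.3 CPM in fl/fl (0.47, 0.14 to 0.80), Slbp at 46.6 and 35.4 CPM (0.40) and Rfc2 at 41.02 and 37.7 CPM (0.12). Of 7 mitosis genes compared in cDC2, 6 were at least 1.5-fold higher (3.21% of genes), with sums over the whole list of 210 CPM in Cd36-/- and 127 CPM in fl/fl. Genes of other types were also found in cDC2. Cd79a of B cells was at 382 CPM in Cd36-/- and 358 CPM in fl/fl, and Cd3e of T cells at 23.6 and 9.57 CPM. Retnla was at 3664 and 1748 CPM, and at resolution 2 it led a separate cluster of 124 Cd36-/- and 206 fl/fl cells. The part of such cells in the cDC2 values was not tested. In cDC1 Pclaf was at 112 CPM in Cd36-/- and 113 CPM in fl/fl, Dut at 94.2 and 88.9 CPM, and Pcna at 70.6 and 57.8 CPM, each from 26 to 51 UMIs a library. Slbp was at 86.3 and 37.8 CPM in cDC1, from 33 and 17 UMIs (1.19, 0.31 to 2.13). The B cell gene Cd79a was at 18.3 CPM in Cd36-/- and 335 CPM in fl/fl cDC1, and the 7 B cell markers, none at 0, summed to 387 and 1189 CPM. Their part in the cDC1 values was not tested.

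B-1 cells, the B cells that reside in the peritoneum, held less of the gene set in the Cd36-/- library, with a log2 ratio of the sum of -0.18 (-0.23 to -0.12). Of 30 members compared, 6 were at least 1.5-fold lower, where 2.38% of genes were, and 1 was as much higher (2.69% of genes). The lowest were genes of DNA methylation upkeep and chromatin remodelling. Uhrf1 was at 3.70 CPM in Cd36-/- and 7.605 CPM in fl/fl (-1.04, -1.61 to -0.50), from 26 and 67 cells with a UMI. Cdca7 was at 5.996 and 10.7 CPM (-0.84, -1.29 to -0.41), and Hells at 9.89 and 17.4 CPM (-0.82, -1.16 to -0.48). Mcm3 (-0.65), Rfc4 (-0.64) and Chaf1a (-0.63) made up the 6. The most abundant members there differed less: Dut was at 48.9 CPM in Cd36-/- and 54.0 CPM in fl/fl (-0.14), Rfc2 at 53.8 and 48.8 CPM (0.14) and Pclaf at 39.6 and 44.4 CPM (-0.16), each with an interval that includes 0. Mitosis genes ran the other way in the class, with 24 of 28 above 0, where 51.5% of all genes were, and a median of 0.37. With doublets kept the B-1 ratios shrank to -0.06 for Uhrf1, -0.34 for Cdca7 and -0.27 for Hells, and no member was then 1.5-fold lower. The log2 ratio of the sum was then 0.06, and it was -0.06 with cell cycle genes kept in the clustering, where 2 members were 1.5-fold lower. Macrophage markers, 9 genes with none at 0, summed to 498 CPM in Cd36-/- and 343 CPM in fl/fl B-1 cells, and their part in the result was not tested.

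B-2 cells, the recirculating follicular type, showed a log2 ratio of the sum of 0.20 (0.11 to 0.28), with 3 of 23 members at least 1.5-fold higher (background 2.95%) and none as much lower. These were Gins1, at 8.91 CPM in Cd36-/- and 3.35 CPM in fl/fl (1.41, 0.57 to 2.29), Mcm3, at 25.01 and 15.5 CPM (0.69), and Rfc3, at 16.1 and 10.2 CPM (0.66, 0.12 to 1.20). Cdt1 was at 34.8 and 23.6 CPM (0.56), while Rfc2, at 77.3 CPM in Cd36-/- and 73.4 CPM in fl/fl (0.07), Slbp, at 59.2 and 55.9 CPM (0.08), and Dut, at 48.6 and 46.5 CPM (0.06), did not differ beyond counting error. The sum ratio of B-2 cells ran from 0.03 to 0.21 under 6 other ways of forming the class. At a mitochondrial limit of 5%, 1 member was 1.5-fold higher and 3 were lower, and with cell cycle genes kept in the clustering 2 were higher and 1 lower. Between the B cell types, Pclaf, Tyms and Ccne1 were at least 1.5-fold higher in B-1 than in B-2 cells in both libraries (5.83% of genes), and Cdt1 was lower (8.86% of genes). Pclaf was at 39.6 CPM in B-1 against 21.3 CPM in B-2 cells of the Cd36-/- library and at 44.4 against 17.0 CPM in the fl/fl library. Over all B cells, 1 of 30 members was 1.5-fold higher (2.39% of genes), which was Gins1 at 8.97 CPM in Cd36-/- and 4.81 CPM in fl/fl, and 3 were lower (2.07% of genes). Those 3 were Hells (-0.67), Cdca7 (-0.69) and Uhrf1 (-0.64). Cdt1 was at 20.2 CPM in Cd36-/- and 16.9 CPM in fl/fl B cells (0.25, 0.02 to 0.48).

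NK cells showed the largest difference between the libraries among the classes with over 300 cells each. Their members summed to 795 CPM from 1011 UMIs in Cd36-/- and 535 CPM from 517 UMIs in fl/fl, a log2 ratio of 0.57 (0.42 to 0.73). Of only 8 members with enough UMIs to compare, 3 were at least 1.5-fold higher (background 5.15%) and none as much lower (3.48%). The minimum of 50 UMIs is on both libraries together, and Pclaf passed it through its UMIs in Cd36-/-. The count of 3 is therefore no separate support for the sum, and with 200 UMIs needed it was 0. All 8 had ratios above 0, as did 56.1% of all genes. Pclaf led with 51 UMIs in 20 cells of Cd36-/- and 4 UMIs in 4 cells of fl/fl, or 40.1 and 4.14 CPM (3.28, 1.83 to 5.21), and 15 of the 51 UMIs came from 1 cell. Lig1 was at 32.3 and 17.6 CPM (0.88, 0.03 to 1.78), and Mcm3, from 35 UMIs in Cd36-/-, had a ratio of 0.83 (-0.08 to 1.81). The most abundant members differed less, with Slbp at 122 CPM in Cd36-/- and 92.1 CPM in fl/fl (0.41), Rfc2 at 105 and 86.9 CPM (0.27) and Pcna at 68.5 and 47.6 CPM (0.52, -0.01 to 1.07). NK cells with 3 or more members after thinning numbered 40 of 330 in Cd36-/- and 20 of 279 in fl/fl. Mean shares that count each cell alike gave a log2 ratio of 0.30. Of the 30 mitosis genes only 4 had enough UMIs to compare. These 4 were higher too, among them Top2a at 42.5 CPM in Cd36-/- and 11.4 CPM in fl/fl. Scarce genes can pass the minimum through the library where they are higher, so that count carries little weight. Over all 30 mitosis genes, compared or not, the sum was 404 CPM in Cd36-/- and 124 CPM in fl/fl. Macrophage markers, 9 genes, summed to 795 CPM in Cd36-/- and 554 CPM in fl/fl NK cells, none of them at 0. B cell markers, 7 genes, summed to 431 and 631 CPM there, and 3 erythroid genes to 3.93 CPM in Cd36-/-, with 1 at 0, and 1703 CPM in fl/fl, with none at 0. Their part in the result was not tested.

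In T cells the sum had a log2 ratio of 0.10 (-0.00 to 0.20), with 1 of 18 members at least 1.5-fold higher (4.79% of genes) and 1 as much lower (2.52%). The higher was Mcm2, at 18.8 CPM in Cd36-/- and 10.4 CPM in fl/fl (0.85, 0.09 to 1.64), and the lower Rfc4, at 10.1 and 16.02 CPM (-0.67, -1.50 to 0.13). Dut, at 82.5 CPM in Cd36-/- and 75.8 CPM in fl/fl (0.12), Slbp, at 81.1 and 65.4 CPM (0.31), and Pcna, at 70.1 and 59.3 CPM (0.24), had the most UMIs, with intervals that include 0.

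Gins1 was the member whose difference recurred across cell types. It was higher in the Cd36-/- library in each of the 9 classes of macrophages, dendritic cells and lymphocytes shown in the map of levels. Beside LPM (8.04 CPM in Cd36-/- and 5.43 CPM in fl/fl) and Gata6-low macrophages (11.97 and 9.88 CPM), it was at 8.62 and 5.55 CPM in MHC class II macrophages and at 8.995 and 5.34 CPM in B-1 cells. In T cells 21 UMIs in Cd36-/- and 9 in fl/fl gave 9.62 and 3.897 CPM, and in NK cells 10 and 2 UMIs gave 7.87 and 2.07 CPM. The intervals in NK cells, cDC2 and cDC1 included 0. A difference in all these classes moves with the library, and what it comes from was not tested. None of the words of 32 bases in the last 400 bases of its transcripts is shared with another gene in GENCODE M21. Slbp was higher in Cd36-/- in all classes of that map other than B-1 cells (39.7 CPM in Cd36-/- and 42.4 CPM in fl/fl).

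Genes of the same machinery outside the 33 were also near 0. Of 58 other replication genes, 0 were 1.5-fold apart in macrophages, with a median log2 ratio of 0.02. The most abundant were Pole4, a polymerase epsilon subunit, at 63.1 CPM in Cd36-/- and 63.7 CPM in fl/fl, and Gmnn, the inhibitor of Cdt1, at 59.6 and 51.7 CPM (0.21, 0.14 to 0.27). Rfc1, the large clamp loader subunit, was at 46.5 and 51.3 CPM (-0.14), and Usp1, a deubiquitinase that acts on PCNA, at 47.5 and 49.3 CPM (-0.05). Gmnn also stood in the list of inhibitors. Of 14 cell cycle inhibitors 1 was 1.5-fold higher in macrophages (1.4% of all genes) and none as much lower (2.09%). Cdkn1a, which encodes p21, was at 94.7 CPM in Cd36-/- and 95.7 CPM in fl/fl (-0.01), and Cdkn2d at 51.8 and 44.8 CPM (0.21). Of the 33 members, 3 may share reads with near copies, as judged by more than 10% of their 3′ words: Mcm7 (44.0%, with Gm5487), Rrm2 (23.8%) and Tyms (15.5%, Tyms-ps among its partners), so their counts are less certain.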

How the data were processed

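Counts of unique molecules (UMIs) per gene and cell barcode were deposited by the authors as 1 unnormalized matrix per library. The submitters' processing notes name Cell Ranger and mm10, and the file headers give software version 3.0.0. The annotation release is not given in the sources used here. The Cd36-/- matrix holds 16543 barcodes with 116600732 UMIs, and that of fl/fl 15537 barcodes with 117238057 UMIs.

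Cells with at least 200 genes and at most 10% mitochondrial UMIs were kept, and Scrublet (in scanpy 1.11.5) marked 977 Cd36-/- (6.11%) and 728 fl/fl (4.94%) cells as doublets, which were removed. Both libraries were clustered together (2000 variable genes, 40 components, 20 neighbours, Leiden resolution 1, leidenalg 0.10.2) without 544 cell cycle and histone genes. The scoring of marker genes and the limits of the direct marker gates were set after marker values had been seen, and the gate limits were changed once. Other tools were numpy 2.4.6, scipy 1.17.1, scikit-learn 1.9.0 and matplotlib 3.10.9.

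UMIs were summed per class and library and divided by the class total. Intervals, all at 95% and for counting error only, are exact: Poisson for a level, binomial given the sum of both counts for a ratio, and Clopper-Pearson for a share. Those for levels and ratios take UMIs as independent, also UMIs of the same cell, and so are narrow where few cells hold many. Ratios were compared for genes with at least 50 UMIs in a class over both libraries. In small classes a gene near that minimum can pass through the library where it is higher. Cells are not replicates, so no test was made. The ratios and their intervals were tested on simulated counts. Thinning was checked on cells of these data, with a routine separate from the one behind the shares, and the fold counts were not part of that test. Gene positions and shared 3′ words came from GENCODE M21, which held 30934 of the 31053 gene IDs, and promoters from RefSeq. Sequences for Mcm4, Gins1, Gins2, Rfc2 and Ccne2 were not used here.

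All members are given in macrophages. In other classes the text gives the 3 with the most UMIs and up to 3 highest and 3 lowest by the interval bound nearest to 0, and any others were named after their values were seen. The members, lists and rules were chosen with earlier results of these data known. No deposited per-sample column was left unused (0 columns).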

Additional observations from a re-analysis of the deposited data

Results flagged for a closer look

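The difference between the libraries did not have the same direction in every cell class, which marks the sums below for a second look. The members' sum was higher in the Cd36-/- library in NK cells, at a log2 ratio of 0.57 (0.42 to 0.73), and lower in LPM, at -0.052 (-0.09 to -0.02), and in B cells, at -0.073 (-0.12 to -0.03). These ratios go in opposite directions beyond counting error, which takes each UMI as independent. Counting each cell alike gave 0.30 in NK cells, below that interval. With 1 library a group the difference between classes was not tested. The sums of LPM and B cells changed sign under other settings, given with the processing.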

How the results depend on the processing

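No paired analysis was possible because each group has 1 library. Of the results recomputed under other settings, 155 moved by less than the limit set for a difference, some of them across 0, 45 moved by more and 4 reversed. The reversals were in the members' sum: B cells were at a log2 ratio of 0.089 with doublets kept and 0.072 with each cell counted alike, and LPM at 0.024 by direct marker gates and 0.078 with each cell counted alike. The sum of LPM moved to -0.011 with doublets kept and that of B cells to -0.020 with cell cycle genes clustered. The macrophage sum was -0.025 at a mitochondrial limit of 20%, -0.017 by direct gates, 0.033 when centred on the median gene and 0.078 with each cell counted alike. In Gata6-low macrophages it was -0.018 at a limit of 5%, -0.027 at 20%, -0.024 with cell cycle genes clustered, -0.018 at resolution 2, -0.046 by direct gates, 0.035 when centred, 0.075 with each cell alike and -0.018 without Pclaf. NK cells were at 0.95 by direct gates and 0.30 with each cell alike. Without thinning, the share of cells with 3 or more members differed by -2.29 points in macrophages, -2.23 in LPM, -2.85 in Gata6-low macrophages, -3.49 in B cells, -4.01 in T cells and -2.54 in NK cells. With at least 2 members needed it differed by 5.08 points in T cells. Members 1.5-fold apart numbered 1 in Gata6-low macrophages at a limit of 20%, 1 in LPM when centred and 1 with the low-UMI cluster counted as LPM, a setting chosen after seeing the data. In B cells they numbered 2 with doublets kept, 2 with cell cycle genes clustered and 0 at 20 CPM or more. In T cells they numbered 1 with doublets kept, 1 by direct gates, and 0 with cell cycle genes clustered, at 200 UMIs or at 20 CPM. In NK cells they numbered 5 by direct gates and 0 at 200 UMIs. At the lower fold limit 2 members were apart in macrophages, 2 in LPM, 1 in Gata6-low macrophages, 8 in B cells, 5 in T cells and 5 in NK cells, and at 2-fold 0 in B cells, 0 in T cells and 1 in NK cells. The causes were not tested. The direct-gate comparison of Gata6-low macrophages with LPM and the removal of shared barcodes were also chosen after seeing the data. Counting depth limits the small classes, and no setting replaces a second library.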

Other observations

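Of the mitosis genes, 9 could be compared in T cells, and 5 of them were at least 1.5-fold lower in the Cd36-/- library (2.52% of all genes were), with sums over the 30 genes of 302 CPM in Cd36-/- and 388 CPM in fl/fl, while the sum of the replication members was 716 and 668 CPM. The unnamed cluster of few UMIs held the replication members at 839 CPM in Cd36-/- (794 to 885) and 731 CPM in fl/fl (693 to 771).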
